A study of Mus musculus with 59 samples.

Results

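Luminal epithelium of mouse uterus without epithelial oestrogen receptor alpha was compared with control luminal epithelium on the day of the mating plug (D0.5). The comparison held 16 libraries of the 59 in the series, chosen by their labels alone: 7 from knockout mice (numbers 21 to 27) and 9 from control mice (numbers 1 to 9), each from its own animal. Control females were Esr1 f/-, with a floxed and a null allele of the receptor gene. Knockout females (epiERα-/-) carried the same Esr1 f/- genotype and in addition Wnt7aCre, which drives recombination in uterine epithelium while stroma and muscle keep the floxed allele. All females, controls included, therefore had at most a single working Esr1 allele in every cell. Virgin females of roughly 2 to 6 months were mated with wild-type males (Esr1 f/f or C57BL/6) and dissected late in the morning. The opened horns were digested with dispase, and the lining was scraped off as sheets (LE). Beside them, 10 LE libraries of D3.5 (6 knockout, 4 control) and 10 libraries of an undigested piece of whole uterus at D0.5 (U; 4 knockout, 6 control, all from mice that also gave LE) served for comparison.

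The luminal epithelium is the sheet of cells that faces the uterine cavity, receives the sperm and later the embryo. Oestrogen receptor alpha, encoded by Esr1, is a nuclear receptor that binds oestrogen and then DNA, directly at oestrogen response elements or through other factors. On the day of mating, after the oestrogen peak of oestrus, this epithelium secretes complement, lactoferrin and other defence proteins, and expresses the Sprr2 genes. By D3.5 progesterone from the corpora lutea prevails and the epithelium turns towards receptivity. Stromal receptor also sends signals to the epithelium, so that a gene may respond to oestrogen without receptor in the cell itself.

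Esr1 was lower in all knockout libraries. Its level, in CPM (counts scaled to a common library total), was 34.8 to 62.9 CPM (median 41.5) in knockout and 110.4 to 273 CPM (median 208) in control LE. The groups did not overlap: the highest knockout library (23) lay below the lowest control library (2). The knockout mean was 24.7% of the control mean on CPM and 26.0% on the authors' TPM, the length-scaled unit of their second table. A two-sided exact permutation test of log2 CPM over the 11440 splits of 16 libraries gave p = 0.000175, the smallest it can give, and the same p on TPM. The source of the remaining Esr1 reads was not tested.

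Total counts ran from 16.6 to 37.9 M in knockout and 16.4 to 80.3 M in control libraries, with 15834 to 19269 genes detected, the most in knockout library 21. Each of the 16 libraries correlated better with its own group (median Pearson r of log2 CPM over genes 0.955 to 0.979) than with the other (0.911 to 0.941). In each group 1 library stood apart most often. Control library 1 was separated from the other 8 controls by Dixon's criterion for 388 of 9714 genes of at least 10 CPM. Knockout library 21 was separated from the other knockouts for 147, against 1 to 75 for each of the other 14. Genes with any such library made up 7.28% in control and 4.11% in knockout, where chance gives about 5%. Values without single libraries are given beside results that moved with them. The sheets carried other cells too: summed CPM of 12 stromal fibroblast markers was 1082 to 5036 in knockout and 1347 to 7087 in control, beside 5584 to 9319 and 10754 to 18601 for 16 epithelial markers. In such bulk samples fewer cells of a type and less RNA per cell cannot be told apart.

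Of 15601 genes tested by edgeR's quasi-likelihood test, 3676 (23.6%) passed at an adjusted p under 0.05 and are called changed here. Each library is a separate mouse, so the p-values measure the spread between mice. A pair of values x ± y after a gene name is its log2 fold change, knockout minus control, with its standard error (SE), and a single value there is the fold change alone. Of the called genes, 1708 (10.9% of those tested) were higher and 1968 (12.6%) lower in knockout. The median log2 fold change over all tested genes was −0.01. Among the called genes 1935 differed by at least 2-fold, 837 by at least 4-fold (511 higher, 326 lower) and 85 by at least 32-fold (38 higher, 47 lower). In 974 called genes (6.24% of those tested; 480 higher, 494 lower) the 7 knockout and 9 control libraries did not overlap at all. Without control library 1, 1761 genes were higher and 2010 lower. Without knockout library 21 the counts were 1737 and 2026.

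**Figure D1:**
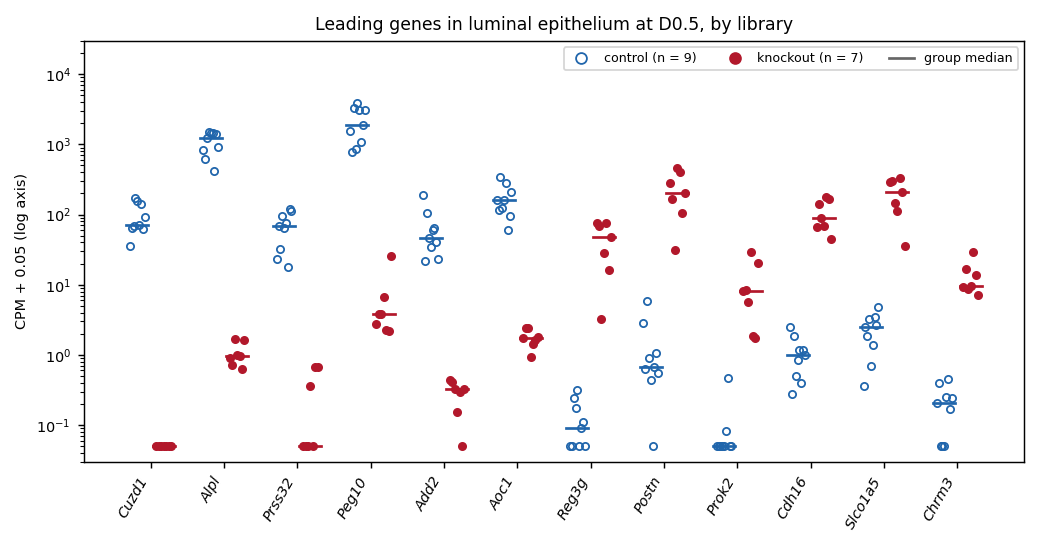
Level of 12 genes in each of the 16 libraries, in CPM on a log axis with 0.05 CPM added; open circles are the 9 control and filled circles the 7 knockout libraries, and bars are group medians. In all 12 genes the 2 groups lie apart; Cuzd1 sits at the floor of the axis in every knockout library, having no count there.

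A small set of genes went from substantial levels in control LE to almost none in knockout. With a control median of at least 10 CPM and less than 1 CPM in every knockout library, these numbered 10: Cuzd1, Prss32, Add2, Ly6f, Tmprss11e, Lrat, Dkkl1, Lpo, Cpn1 and Krt20. The reverse, a knockout median of at least 10 CPM with every control below 1 CPM, held for Reg3g only. Cuzd1 encodes a membrane protein with CUB and zona pellucida domains. It had 35.7 to 172 CPM (median 71.1) in control LE and no count in any of the 7 knockout libraries, at least 5238-fold lower when set against 3 counts over the knockout group. Alpl encodes tissue-nonspecific alkaline phosphatase, an enzyme long used as a stain for uterine epithelium. Its level was 416 to 1487 CPM (median 1232) in control and 0.572 to 1.66 CPM (median 0.904) in knockout. This is a log2 change of −10.03 ± 0.64 (SE, adjusted p = 3.41e-11). The lowest Alpl value in control was that of library 7, and no knockout library came near it. Aoc1 encodes diamine oxidase, which breaks down histamine and putrescine. It stood at 60.5 to 345 CPM (median 159) in control and 0.892 to 2.36 CPM (median 1.68) in knockout (log2 fold change −6.63 ± 0.42 SE, adjusted p = 3.41e-11), and the groups lay far apart.

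The promoters of the 2 lowest genes are shown because the deleted protein is a DNA-binding receptor. They come from RefSeq (build GRCm38.p6, 250 bases before to 50 after the annotated start, read in the direction of the gene). Capitals mark each core site, 1 arm of the palindromic oestrogen response element, GGTCA or its complement TGACC, on either strand.
Cuzd1, chr7:131322243-131322542, minus strand: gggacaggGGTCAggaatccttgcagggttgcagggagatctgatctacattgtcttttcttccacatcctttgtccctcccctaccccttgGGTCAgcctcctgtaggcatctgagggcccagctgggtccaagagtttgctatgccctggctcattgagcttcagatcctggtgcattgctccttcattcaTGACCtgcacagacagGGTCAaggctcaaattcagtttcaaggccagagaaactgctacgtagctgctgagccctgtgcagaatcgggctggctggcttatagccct
Alpl, first start, chr4:137796335-137796634, minus strand: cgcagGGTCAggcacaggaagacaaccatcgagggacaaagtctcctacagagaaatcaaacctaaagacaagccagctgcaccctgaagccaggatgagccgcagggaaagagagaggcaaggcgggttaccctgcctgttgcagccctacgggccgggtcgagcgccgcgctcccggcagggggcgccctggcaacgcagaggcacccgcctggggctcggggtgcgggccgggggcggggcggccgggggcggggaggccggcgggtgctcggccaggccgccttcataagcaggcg
Alpl, second start, chr4:137766426-137766725, minus strand: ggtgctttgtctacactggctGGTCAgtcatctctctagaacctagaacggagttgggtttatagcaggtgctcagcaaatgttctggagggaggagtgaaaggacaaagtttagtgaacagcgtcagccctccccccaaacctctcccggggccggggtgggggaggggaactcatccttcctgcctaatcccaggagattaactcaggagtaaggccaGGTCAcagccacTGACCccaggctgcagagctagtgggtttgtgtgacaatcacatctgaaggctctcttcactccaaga
The Cuzd1 promoter held 4 core sites, a number reached by 0.399% of the 32851 promoters in the table. The Alpl promoters held 1 and 3. At the second Alpl start 2 of the core sites face each other with 7 bases between them, whereas the full consensus element has its core sites in the same facing order with 3 bases between them. That full element, searched on both strands, was found in 23 promoters (0.0700%). Only 3 tested genes had it and none of the 3 was called, too few to compare called with other genes. At least 1 core site lay in 40.5% of all promoters and in 38.5% of those of tested genes. By call, the share was 39.8% for genes lower in knockout, 37.6% for genes higher in knockout and 38.4% for genes not called. A match describes letters in this window and says nothing of binding, and 12267 of the 15601 tested genes had an entry.

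The other leading losses were of varied function. Peg10 is an imprinted gene derived from a retrotransposon. It ran at 771 to 3943 CPM (median 1886) in control and 2.15 to 25.5 CPM (median 3.77) in knockout, where library 27 was highest (log2 fold change of −8.36 ± 0.88 (SE, adjusted p = 1.53e-07); −9.26 without that library). Its imprinted neighbour Sgce, which encodes epsilon-sarcoglycan, was also lower, at 8.49 to 21.5 CPM in knockout against 32 to 57.3 CPM in control libraries (−1.46 ± 0.27). The serine protease gene Prss32 had 18 to 120.2 CPM (median 68) in control; 4 of 7 knockout libraries had no count and the other 3 at most 0.628 CPM. Atp2c2 encodes a Golgi calcium and manganese pump and fell from a median of 187 to one of 0.976 CPM (−7.08 ± 0.48), while the log2 fold change of its relative Atp2c1 was −0.91 ± 0.16 (98.4 against 199 CPM). Add2, the beta subunit of the membrane skeleton protein adducin, and Ly6f, a GPI-anchored surface protein, had log2 fold changes of −8.02 and −6.88. So did the membrane protease gene Tmprss11e (−6.71) and the proton channel gene Otop1 (−6.17). Without knockout library 21 those of Ly6f, Tmprss11e and Otop1 were −7.77, −7.69 and −7.34, and without control library 1 that of Otop1 was −5.47. Ly6f and Sprr2a3 (−6.37) have near-identical relatives among which estimated counts may be split, and are uncertain as single genes. Control library 1 was the highest of all libraries for Add2 (189.9 CPM), Otop1 (55 CPM), Lrat (226 CPM) and Atp2c2 (448 CPM).

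Among genes with a knockout mean of at least 10 CPM and no overlap, those that rose most were silent or nearly so in control LE. Reg3g, an antibacterial C-type lectin of mucosal surfaces, had no count in 4 of 9 controls and at most 0.261 CPM in the others. In knockout it stood at 3.21 to 75.8 CPM (median 47.4), lowest in library 23 (log2 fold change 9.17 ± 1.10 SE, adjusted p = 8.37e-07). Postn, which encodes the matrix protein periostin, rose from 0 to 5.79 CPM (median 0.627) in control to 30.9 to 464 CPM (median 203) in knockout (log2 fold change 7.47 ± 0.95 SE, adjusted p = 1.96e-06), with library 23 again the lowest. Cdh16, a cadherin known from kidney tubules, rose from 0.231 to 2.48 CPM (median 0.951) in control to 44.3 to 176 CPM (median 89.3) in knockout (log2 fold change 6.76 ± 0.47 SE, adjusted p = 1.61e-10). Slco1a5, an organic anion transporter gene, rose from 0.31 to 4.76 CPM (median 2.48) in control to 35.2 to 327 CPM (median 212) in knockout, where library 27 was lowest (6.46 ± 0.76). Chrm3, the M3 muscarinic acetylcholine receptor gene, stood at 7.04 to 29.6 CPM in knockout against 0 to 0.405 CPM in control libraries, and Prok2, a secreted prokineticin gene, had no count in 7 of 9 controls and 1.67 to 28.8 CPM in knockout. The gel-forming mucin gene Muc5b (5.79), the scavenger receptor gene Scara3 (5.73) and Wfdc21, of the whey acidic protein family (5.63), were also among the 12 highest of that kind. Without control library 3 the log2 fold change of Postn was 8.15, and without control library 2 that of Wfdc21 was 6.48. Retnlg and Mmp8, both neutrophil products, and the sodium channel subunit gene Scnn1g complete them and are described with their groups.

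Secretory genes that fill the control transcriptome fell unevenly. The 20 most abundant control genes took 20.1% of control and 15.9% of knockout counts; 8 of them were lower, 2 higher and 10 not called. Complement C3 fell from 18467 to 41459.5 CPM (median 26818) in control to 9495 to 13703 CPM (median 10488) in knockout (log2 fold change −1.40 ± 0.32 SE, adjusted p = 0.00187), without overlap. Prap1, a proline-rich acidic secreted protein, fell from a control range of 2591 to 10129 CPM (median 8430.4) to a knockout range of 406 to 1087 CPM (median 800.3), a log2 fold change −3.37 ± 0.51 SE, adjusted p = 2.31e-05. The lactoferrin gene Ltf (−0.82 ± 0.60, adjusted p = 0.365), the lipocalin gene Lcn2 (−0.32 ± 0.64, 0.785) and Clca1 (−1.16 ± 0.51, 0.1) did not pass. Of 20 oestrogen-responsive epithelial genes in a list, 11 were lower and none higher, with a median log2 fold change of −1.03. The list score, the mean of log2(CPM + 0.05) over its genes, was 7.67 to 8.09 in knockout and 8.69 to 9.50 in control libraries, with no overlap. Greb1, a coregulator gene induced by oestrogen receptor, stood at 6.69 to 124 CPM (median 14.9) in control and 0 to 4.64 CPM (median 0.965) in knockout (log2 fold change −3.81 ± 0.71 SE, adjusted p = 0.000236). The highest control level was that of library 1, without which its log2 fold change was −2.83. Padi2, a peptidylarginine deiminase, ran from 31.2 to 1860.5 CPM in control; libraries 1 and 3 held 1860.5 and 1001 CPM and the other 7 at most 129 CPM, and the knockout libraries held 11.2 to 33.6 CPM (−4.32 ± 0.78; −3.38 without control library 1). Inhbb, the inhibin beta B subunit gene, was a median of 159 against 300.0 CPM without overlap. Of 15 cornified envelope and Sprr2 genes 9 were lower and none higher, including the envelope plaque genes Evpl (−1.20 ± 0.15) and Ppl (−1.06 ± 0.16). Pgr, the progesterone receptor gene, was not called, at 8.56 to 23.9 CPM in knockout against 7.56 to 26.4 CPM in control libraries (−0.02 ± 0.27, adjusted p = 0.97).

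Genes of cholesterol synthesis were lower at nearly every step of the pathway. Of its 20 enzyme genes 19 were called lower and none higher, with a median log2 fold change of −2.12; only Ebp was not called (−0.49 ± 0.19, adjusted p = 0.0584). At the entry, Hmgcs1, which makes HMG-CoA, stood at 40.7 against 200.4 CPM by group medians. In the mevalonate steps Pmvk, the phosphomevalonate kinase gene, separated the groups completely, at 3.15 to 17.9 CPM (median 5.86) against 29.9 to 71.8 CPM (median 54), a log2 fold change −2.63 ± 0.32 SE, adjusted p = 1.02e-06. Mvk (−2.66), Idi1 (−2.89) and the squalene epoxidase gene Sqle (−2.51) fell by similar log2 amounts but overlapped between groups. Among the late steps Tm7sf2, a sterol reductase, fell to 3.83 to 6.58 CPM (median 4.58) in knockout from 4.55 to 42.1 CPM (median 37.3) in control (log2 fold change −2.71 ± 0.29 SE, adjusted p = 2.15e-07).

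Control library 1 was low at most of these steps. It had the lowest control level of 21.1 CPM for Fdps, which makes farnesyl diphosphate, and of 23.3 CPM for the sterol carrier gene Stard4. Over all 20 genes its score was 4.37. The other 8 controls scored 5.96 to 7.13, and knockout libraries 3.78 to 5.31. Without it 19 of the 20 genes were lower. The highest knockout scores were those of libraries 27 (5.31) and 25 (4.86). The promoter of Hmgcs1 is shown because it was the only one, of the 16 sterol genes with an entry (19 promoters; the genes of the pathway plot with Insig1 and Stard4), that held the 9-base sterol regulatory element TCACNCCAC on either strand, marked in capitals. The element was in 1.24% of all promoters.
Hmgcs1, chr13:119690101-119690400, plus strand: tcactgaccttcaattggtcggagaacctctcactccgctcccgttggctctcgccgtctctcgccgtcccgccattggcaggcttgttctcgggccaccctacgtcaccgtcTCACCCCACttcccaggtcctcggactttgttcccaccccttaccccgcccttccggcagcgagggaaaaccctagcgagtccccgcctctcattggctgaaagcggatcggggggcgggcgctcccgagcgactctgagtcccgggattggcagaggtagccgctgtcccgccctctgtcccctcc
Hmgcs1 itself ran at 35.4 to 146 CPM in knockout against 48.6 to 322 CPM in control libraries (log2 fold change −1.72 ± 0.33 SE, adjusted p = 0.000324), the groups overlapping through control library 1.

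**Figure D2:**
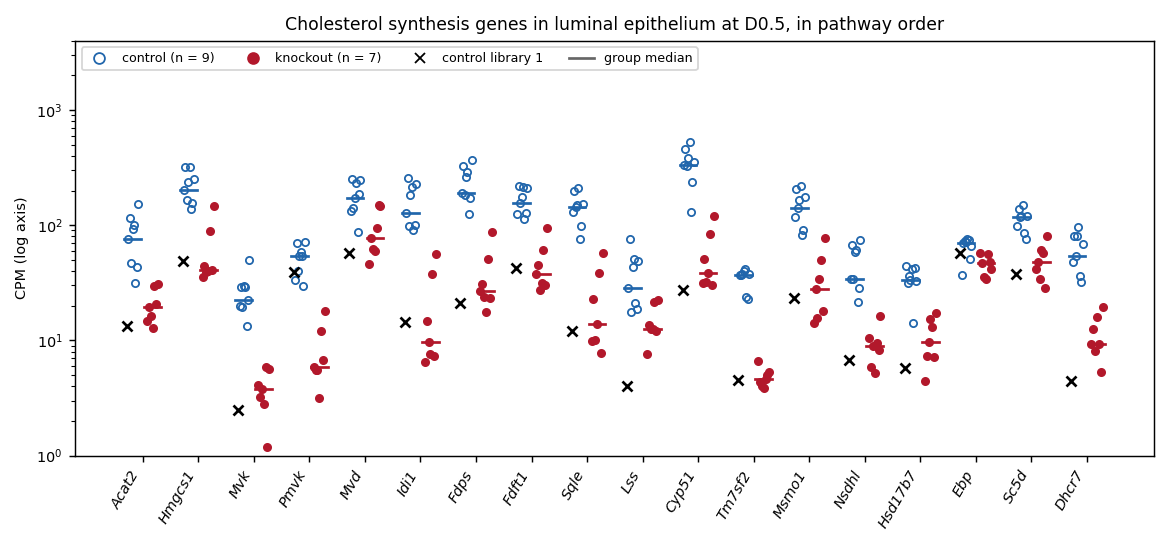
18 of the 20 cholesterol synthesis genes in the order of the pathway, each library's level in CPM on a log axis; open circles are control, filled circles knockout, control library 1 is drawn as a cross and bars are group medians. Knockout medians lie below control medians for all 18 genes plotted; control library 1 is below the highest knockout for 16 of them, the exceptions being Pmvk and Ebp.

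Genes of sterol sensing, uptake and efflux were split, with 7 of 20 higher and 6 lower. Srebf2, the transcription factor that drives sterol synthesis and uptake, was lower at 108 to 222 CPM in knockout against 136 to 455 CPM in control libraries (log2 fold change −1.16 ± 0.20 SE, adjusted p = 0.000121). Stard4 (14.7 against 122 CPM) was lower as well, with a log2 change of −2.59. By contrast the cholesterol exporters Abca1 and Abcg1, targets of the oxysterol receptor LXR, rose. Abca1 stood at 175 to 458 CPM (median 387) in knockout and 63.5 to 175 CPM (median 136) in control (log2 fold change 1.46 ± 0.29 SE, adjusted p = 0.000543), with libraries 25 and 27 at the level of the highest controls. Abcg1 rose too (2.05 ± 0.37). The LXR alpha gene Nr1h3 (1.65), Mylip, an LXR-induced ubiquitin ligase gene (1.09), and Apoe (1.32) rose as well. The call of Apoe (knockout 22, 23 or 25) was lost when any library in brackets was left out. Macrophages also express Abca1, Abcg1, Nr1h3 and Apoe. Of 9 macrophage markers 6 were higher in knockout and 1, Cd68, was lower. The part of macrophage RNA in these rises was not tested. Genes of fatty acid and glycerolipid synthesis were lower too, in 10 of 20 cases with 1 higher. Acly, which makes cytosolic acetyl-CoA, separated the groups at 95.5 to 133 CPM in knockout against 170.2 to 305 CPM in control libraries (log2 fold change −1.05 ± 0.12 SE, adjusted p = 4.79e-07), and Fasn (−1.14), Acaca (−1.31) and Acss2 (−1.41) fell beside it. Lipin 1 (Lpin1) fell from a control median of 51.2 to a knockout median of 14.2 CPM.

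Chaperones of the endoplasmic reticulum rose together. Of 22 genes of the unfolded protein response 13 were higher and none lower (median log2 fold change 0.78). Creld2, a secreted chaperone-like protein, separated the groups: 123 to 365 CPM (median 210.5) against 61.1 to 87 CPM (median 72.6), a log2 fold change 1.53 ± 0.19 SE, adjusted p = 1.29e-06. Library 24 was highest for Creld2 (365 CPM) and for the chaperone gene Hyou1 (1381 CPM, against a control range of 201 to 519). The main luminal chaperone BiP, encoded by Hspa5, had a median of 2459 against 1282 CPM (1.04 ± 0.22), and Hsp90b1 (GRP94) rose (0.91 ± 0.19). Selenos and Sdf2l1 also had non-overlapping groups (0.79 and 1.47). The stress factor Ddit3 (CHOP) rose (0.79 ± 0.24). Of 22 genes of the translocon and of transport to the Golgi 3 were higher (Ssr3, Ssr1 and Sec61a1, log2 fold changes of 0.58, 0.43 and 0.46), a share near the 10.9% over all tested genes. Leaving out 1 library gave 1 (knockout 22 or 24) to 5 (knockout 23). Scores of the unfolded protein response overlapped, at 7.77 to 8.70 in knockout and 7.19 to 7.84 in control. Of 18 genes of amino acid synthesis and import, 4 rose (Slc6a14, Slc7a5, Sesn2 and Phgdh) and 2 fell (Slc1a5 and Slc38a2), with Slc38a2, a neutral amino acid transporter gene, at 198 to 297 CPM in knockout against 349 to 1204 CPM in control libraries. Leaving out 1 library gave 2 (knockout 27) to 5 (control 2 or knockout 21) higher genes of this list. The calls of Ddit3 (knockout 27), Phgdh (control 4, 6, 7 or 8, knockout 24 or 27), Sec61a1 (control 2, 5, 6, 8 or 9, knockout 22, 24, 26 or 27, or 5 D3.5 libraries), Sesn2 (knockout 27) and Ssr1 (knockout 22 or 24) were lost when any library in brackets was left out.

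Enzymes that act on hormones, retinoids and amines were among the sharpest losses. Hsd17b2, which oxidises oestradiol to oestrone, was at 58.9 to 127 CPM (median 72.7) in control and 1.19 to 9.03 CPM (median 1.57) in knockout, where library 24 held the highest value (log2 fold change −4.71 ± 0.47 SE, adjusted p = 2.86e-07). Its relative Hsd17b11 stood at 63.9 to 83.7 CPM (median 72.2) in knockout and 149 to 464 CPM (median 305) in control (log2 fold change −2.10 ± 0.17 SE, adjusted p = 3.21e-09), with little spread among the knockouts. Akr1c18, a 20alpha-hydroxysteroid dehydrogenase that inactivates progesterone, was low and fell further (0 to 0.367 CPM in knockout against 1.27 to 36 CPM in control libraries, −5.33 ± 0.97, and −4.20 without control library 1); control library 1 held 36 CPM and the other 8 controls at most 5.64 CPM. Of 15 tested genes of local steroid metabolism 4 were lower and Sult1a1 was higher (1.96 ± 0.29); without control 1, 2, 7 or 9 or knockout 21 or 24 another gene was called higher. Arginase 1 (Arg1), which splits arginine into ornithine and urea, fell from 450.0 to 1481 CPM (median 835) in control to 11.2 to 77.4 CPM (median 42.3) in knockout (log2 fold change −4.37 ± 0.35 SE, adjusted p = 1.65e-09), and the argininosuccinate synthase gene Ass1 fell from a control median of 102 to a knockout median of 37.2 CPM, while arginase 2 (Arg2) rose (1.37 ± 0.36). In the retinoid list 4 of 18 genes rose and 4 fell. Lrat, which stores retinol as esters, and Crabp2, which carries retinoic acid to the nucleus, fell (−6.39 and −3.07, the former −5.08 without control library 1). The retinol importer gene Stra6 rose to 49.6 to 154 CPM (median 71.9), but control library 2 held 85.4 CPM, within the knockout range, and the other controls at most 21.3 CPM. The receptor gene Rarb had no count in 6 of 9 controls and stood at 0.169 to 4.24 CPM in knockout (4.68 ± 0.91). Ptger4, the EP4 receptor for prostaglandin E2, fell without overlap (11 to 20.8 CPM in knockout against 28.7 to 94.2 CPM in control libraries, −1.96 ± 0.26), and the synthase gene Ptges rose (88.6 against 15.6 CPM, 2.06 ± 0.57). In the whole prostaglandin list 5 of 18 were higher and 3 lower; leaving out control 3, knockout 26 or knockout 27 reduced the 5 to 2, and leaving out control 5, 6 or 7 reduced them to 3.

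Of 22 peroxide and glutathione genes, 9 rose and 2 fell. Prdx6, a peroxiredoxin gene, separated the groups at 82.9 to 123 CPM in knockout against 42.9 to 69 CPM in control libraries (1.03 ± 0.15), and the mitochondrial superoxide dismutase gene Sod2 rose from a control median of 39.9 to a knockout median of 151 CPM (1.88 ± 0.20). Gss, which makes glutathione, and Srxn1, which repairs peroxiredoxins, fell without overlap (−1.51 and −1.22). Among glycolysis genes hexokinase 1 (Hk1) rose most clearly, 111 to 215 CPM in knockout against 34.1 to 91.3 CPM in control libraries (log2 fold change 1.41 ± 0.17 SE, adjusted p = 1.01e-06), and the phosphofructokinase genes Pfkp (1.04) and Pfkl (0.59) rose beside it, while Vegfa and Car12 fell (−0.69 and −0.96). The calls of Vegfa (control 3, 4 or 6, knockout 21, 22, 23, 25 or 26) and Car12 (knockout 27) were lost when any library in brackets was left out. Neither gene was called on TPM, and Vegfa was not called with size factors or in a fit of the 16 libraries alone. Respiratory chain genes were mostly not called (1 higher, 1 lower of 16); the higher one, Ppargc1a, a coactivator of mitochondrial biogenesis, went from a control median of 3.3 to a knockout median of 17.4 CPM without overlap.

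Many genes of epithelial structure were lower. Krt8, a keratin of simple epithelium, stood at 438 to 1129.6 CPM in knockout against 1217 to 3536 CPM in control libraries (−1.40 ± 0.24), and its partner Krt19 at 388 to 782 CPM in knockout against 998 to 3474 CPM in control libraries (−1.70 ± 0.27). Krt20 fell from 0.992 to 41.4 CPM (median 14.5) in control to 0 to 0.929 CPM (median 0.492) in knockout (−5.33 ± 0.90), and Krt23 fell without overlap (−3.55 ± 0.54). Krt17, a keratin of stressed and basal epithelium, rose (3.18 to 81.3 CPM in knockout against 0.121 to 5.71 CPM in control libraries, 3.56 ± 0.75). Without knockout library 25 its log2 fold change was 2.73. In all 6 of 14 keratins were lower and 1 higher, or 3 higher without control library 9. Of 29 junction genes 13 were lower and only Tjp1, the ZO-1 gene, was higher (0.48 ± 0.15). The lower genes included members of desmosomes (Dsg2, Dsp, Jup, Perp), tight junctions (Cldn3, Cldn4, Cldn23) and gap junctions (Gja1, Gjb1, Gjb2). Perp was at 47.1 to 107 CPM in knockout against 115 to 274 CPM in control libraries (−1.20 ± 0.21) and Dsg2, desmoglein 2, at 51.9 to 110.0 CPM in knockout against 126 to 199 CPM in control libraries (−1.16 ± 0.21). Cldn23 fell most within the list (−2.47 ± 0.41), next to Gja1, the connexin 43 gene (−2.34 ± 0.37). Lama3 and Lamb3 encode chains of an anchoring laminin of epithelia. Lama3 fell to 99.5 to 229 CPM (median 148) in knockout from 327 to 1035 CPM (median 567) in control (log2 fold change −1.90 ± 0.29 SE, adjusted p = 2.12e-05), and Lamb3 fell beside it (−1.03 ± 0.25). Lamb1 was lower as well (32.1 to 77.7 CPM in knockout against 119 to 284 CPM in control libraries, −1.89 ± 0.21), as were the secreted proteases Adamts1 (−2.43) and Adamts4 (−1.93). Of 23 genes of matrix proteases and basement membrane 8 were lower and 1 higher, with a median log2 fold change of −0.07. The calls of Cldn4 (control 4 or 8, knockout 21, 22, 23 or 25) and Adamts4 (control 1) were lost when any library in brackets was left out. On TPM Cldn4, Gjb1 and Adamts4 were not called. Cldn4 also lost its call with voom and in a fit of the 16 libraries alone. Among 16 general epithelial markers 9 were lower and 7 not called. The latter included Cdh1 (−0.40 ± 0.19), Cldn7 (0.08 ± 0.18), Esrp1 (0.10 ± 0.14), Ehf (0.25 ± 0.15), Grhl2 (−0.57 ± 0.23) and Krt18 (−0.44 ± 0.20). Scores of the 16 markers did not overlap and lay at 7.98 to 8.55 in knockout and 8.81 to 9.45 in control.

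Subunit genes of the epithelial sodium channel rose. Scnn1g went from 0.396 to 2.43 CPM (median 0.769) in control to 15.1 to 96.3 CPM (median 34.7) in knockout (log2 fold change 5.57 ± 0.72 SE, adjusted p = 2.31e-06), Scnn1a from a control median of 7.69 to a knockout median of 21.3 CPM (1.61 ± 0.29) and Scnn1b from 44.7 to 174 CPM (1.77 ± 0.57), which was not called without knockout library 21 (1.59). The anion channel genes Cftr and Slc26a9 fell, both without overlap: Cftr to 20.8 to 65.1 CPM (median 27.7) in knockout from 71.2 to 237 CPM (median 147) in control (log2 fold change −2.24 ± 0.28 SE, adjusted p = 1.46e-06) with Slc26a9 (−2.26 ± 0.31). Fxyd4, a regulator of the sodium pump, fell (−1.83 ± 0.25), whereas the pump subunit gene Atp1b1 (1.11 ± 0.18) and the chloride importer gene Slc12a2 (1.23 ± 0.21) rose. The water channel gene Aqp4 rose from a control median of 50.4 to a knockout median of 201 CPM. In total 9 of 23 transport genes were higher and 4 lower. Sialyltransferases, which cap surface glycans with sialic acid, rose in 3 cases without overlap: St3gal4 (22.1 to 65.5 CPM in knockout against 1.06 to 7.16 CPM in control libraries, 3.60 ± 0.30), St3gal6 (2.36 ± 0.34) and St6gal1 (1.53 ± 0.35). Chst2, a sulfotransferase, rose (2.53 ± 0.39), and the enzymes C1galt1, B3gnt3, Gcnt3 and St6galnac1, which build mucin-type chains, fell (−0.79, −1.21, −0.75 and −1.85). The call of Gcnt3 (control 6 or 8, knockout 21, 23 or 25) was lost when any library in brackets was left out. The surface glycoprotein genes Cd24a and Prom1 fell without overlap (−2.11 ± 0.22 and −1.71 ± 0.23).

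**Figure D3:**
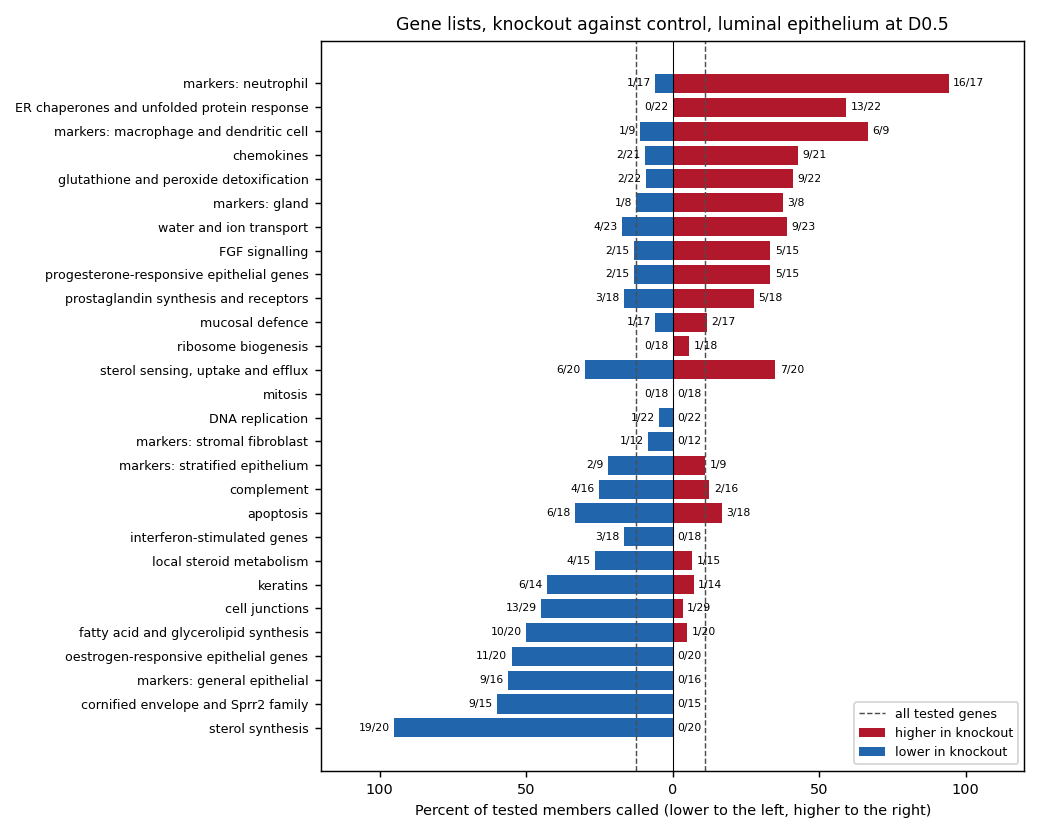
Percent of the tested members of 28 gene lists called higher (to the right) or lower (to the left) in knockout LE at D0.5, with called and tested members given beside each bar; dashed lines mark the 10.9% higher and 12.6% lower among all 15601 tested genes. Neutrophil markers reach furthest to the right and sterol synthesis furthest to the left.

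In the Notch list of signalling genes 6 of 15 rose and 3 fell. The ligand gene Dll1 rose to 4.92 to 17.6 CPM (median 10.9) in knockout from 0.698 to 2.08 CPM (median 1.47) in control (log2 fold change 3.04 ± 0.34 SE, adjusted p = 3.59e-07) and the receptor gene Notch2 rose without overlap (1.17 ± 0.19), while the target gene Hey1 fell, at medians of 7.47 against 56.3 CPM in knockout and control (log2 fold change −2.96 ± 0.43 SE, adjusted p = 1.15e-05). Among Wnt genes 3 of 26 rose and 3 fell, in each direction a share near that over all tested genes (10.9% higher, 12.6% lower). Without control 2 or knockout 27 the number higher was 5, and without control 7 the number lower was 5. Lgr5, the R-spondin receptor gene, rose (1.93 to 19.6 CPM in knockout against 0.207 to 4.04 CPM in control libraries, 2.83 ± 0.56), and Fzd10 (−2.30 ± 0.52) and Rnf43, a Wnt-induced ubiquitin ligase gene (−1.03 ± 0.23), fell. Wnt7a, whose regulatory region drives Cre here, was at 12.6 to 69.9 CPM in knockout against 9.55 to 118 CPM in control libraries (−0.97 ± 0.40, adjusted p = 0.0817). In the insulin-like growth factor family the binding protein genes Igfbp3, Igfbp5 and Igfbp7 rose (2.40, 1.77 and 1.43) with Irs2 (1.35), and none of 13 fell. Fgfr2 fell (−1.67 ± 0.37) and the ligand genes Fgf1 (1.44 ± 0.43) and Fgf9 (0.80 ± 0.26) rose, though neither ligand gene was called on TPM. Without knockout 23 only 1 of the 5 higher FGF genes was called, neither Fgf1 nor Fgf9, and without control 3, 7 or 9 the number was 3. Lifr, the receptor through which leukaemia inhibitory factor acts on this epithelium, fell from a control median of 95.5 to a knockout median of 27.2 CPM (log2 fold change −1.68 ± 0.31 SE, adjusted p = 0.000248), and Socs3, a feedback inhibitor of that signal, rose (1.24 ± 0.28). Mycn, a Myc family transcription factor gene, fell without overlap, 71.9 to 122 CPM in knockout against 182 to 412 CPM in control libraries (−1.63 ± 0.19). The cell cycle gene Ccnd2 (cyclin D2) rose from 3.62 to 30.8 CPM (median 15.4) in control to 44.3 to 109 CPM (median 59.5) in knockout (1.91 ± 0.30). Of 27 epithelial transcription factor genes 9 fell and 3 rose. Pax8, which specifies the female tract, fell (61.7 to 84.9 CPM in knockout against 124 to 389.6 CPM in control libraries, −1.70 ± 0.22), as did Elf5 (−2.18 ± 0.37) and Gata2 (−0.94 ± 0.17), and Foxa2 (3.67 ± 0.60, or 4.77 without control library 1), Klf9 (1.17 ± 0.20) and Cebpb (0.92 ± 0.20) rose.

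Genes of the progesterone response did not move as 1 group, with 5 of 15 higher and 2 lower. Acod1, which makes itaconate, rose from 25.7 to 237 CPM (median 72.5) in control to 267 to 1126 CPM (median 661) in knockout (log2 fold change 2.99 ± 0.36 SE, adjusted p = 8.37e-07), and the histidine decarboxylase gene Hdc rose from a control median of 211 to a knockout median of 347 CPM. Neutrophils and macrophages also express both genes. Neutrophil markers other than Ly6g were higher in the same libraries, while of 9 macrophage markers 6 were higher and 1, Cd68, lower. Ihh, the hedgehog ligand of the epithelium, was called higher but scarce on this day (0.0844 to 1 CPM in knockout against 0 to 0.261 CPM in control libraries, 1.79 ± 0.53). Lrp2, an endocytic receptor gene, rose (1.72 ± 0.41), and Gata2 and Msx1 fell (−0.94 and −1.06).

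Almost no cell division gene passed the test. None of 18 mitosis genes was called, and of 22 replication genes only Mcm7 was, lower (−0.89 ± 0.29); at an unadjusted p under 0.05 edgeR counted 0 mitosis genes, and DESeq2 called 0. Mitosis scores were spread widely within both groups, at 0.22 to 4.29 in knockout and 0.22 to 4.43 in control. The proliferation marker Mki67 was at 3.72 to 65.8 CPM in knockout against 1.94 to 57.2 CPM in control libraries (0.38 ± 0.70, adjusted p = 0.767), high in control libraries 7 and 3 and knockout library 27. Of 18 apoptosis genes 6 were lower, among them Pmaip1, Casp8, Casp9 and Bak1, and 3 higher, with a median log2 fold change of 0.04. The higher ones included the death receptor gene Fas, without overlap (53.5 to 113 CPM in knockout against 7.57 to 28.1 CPM in control libraries, 2.11 ± 0.31). Size factors, DESeq2 and a fit of the 16 libraries alone each gave 4 higher and 4 lower. Limma on log2(TPM + 1) gave 3 higher and 2 lower. Leaving out control 9, knockout 23 or knockout 24 lowered the 6 to 3. The calls of Mcm7 (knockout 24 or 26), Bak1 (knockout 22) and Casp9 (control 3, 5, 6, 7 or 9, knockout 23, 24, 25, 26 or 27) were lost when any library in brackets was left out. None of these genes was called on TPM. Casp9 also lost its call with size factors, with DESeq2 and in a fit of the 16 libraries alone.

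Neutrophil markers other than Ly6g were higher in every knockout library. All 17 tested markers were called, 16 higher and Ly6g lower, beside 23.6% called over all tested genes. In 17 of them the groups did not overlap, beside 6.24% of all tested genes that were called without overlap. Their summed level was 1169 to 4368 CPM in knockout and 19.3 to 527 CPM in control LE, and the median log2 fold change was 3.96. The calprotectin genes S100a8 and S100a9 reached 231 to 931 CPM (median 406) and 435 to 1565 CPM (median 703). S100a8 had been 0.121 to 70.8 CPM (median 10.9) in control (log2 fold change 4.70 ± 0.75 SE, adjusted p = 4.11e-05). Csf3r, the receptor for granulocyte colony-stimulating factor, rose from 1.13 to 82 CPM (median 18.4) in control to 163 to 559 CPM (median 387) in knockout (log2 fold change 3.46 ± 0.64 SE, adjusted p = 0.000211), and the granule collagenase gene Mmp8 rose likewise from 0 to 1.67 CPM (median 0.132) in control to 3.81 to 32.6 CPM (median 20.3) in knockout (5.91 ± 0.80). Without control library 2 the log2 fold changes of S100a8 and Mmp8 were 5.32 and 6.85. Knockout libraries 27 and 24 had the highest scores (6.37 and 6.01), library 25 the lowest knockout score (4.45) and control library 2 the highest control score (3.33). Granule genes of bone marrow precursors were scarce. Ngp stood at 0.181 to 5.93 CPM in knockout against 0 to 0.117 CPM in control libraries. Camp, Elane and Mpo did not pass the filter. Ly6g, which marks mouse neutrophils but belongs to a family of near-identical genes, fell (0.844 to 4.46 CPM in knockout against 5.08 to 18.3 CPM in control libraries).

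Macrophage and dendritic cell markers rose less, in 6 of 9 cases. Itgax (CD11c) was at 8.98 to 19.5 CPM in knockout against 0.646 to 5.43 CPM in control libraries (3.01 ± 0.45) and the complement C1q genes C1qa, C1qb and C1qc rose by 1.56, 1.60 and 1.67. Cd68 was lower instead (40.7 to 97.5 CPM in knockout against 118 to 397 CPM in control libraries, −1.88 ± 0.25). Summed macrophage markers were 131 to 171 CPM in knockout and 209 to 438 CPM in control; Cd68 alone made up most of the control sum. No marker of lymphocytes (10 tested), of eosinophils and mast cells (6), of endothelium (8) or of red cells (5) was called by edgeR; at an unadjusted p under 0.05 the counts were 0, 1, 0 and 1, and DESeq2 called 1 gene in all, the eosinophil marker Siglecf (higher). Of stromal and muscle markers only Fbln1 (−2.27 ± 0.24) and Tagln (−1.18 ± 0.40) were called, both lower. The call of Tagln (control 5, knockout 21, 22, 24, 26 or 27) was lost when any library in brackets was left out.

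Chemokine genes rose with the neutrophil markers. Of 21, 9 were higher and 2 lower. Cxcl5, which attracts neutrophils through CXCR2 and is made by epithelium, had the highest level, 2160.2 to 6366 CPM (median 4850.4) against 94.6 to 791 CPM (median 350.5), a log2 fold change 3.45 ± 0.90 SE, adjusted p = 0.00574, with no overlap. Cxcl1, Cxcl2 and Cxcl3, ligands of the same receptor, rose by 1.91, 2.59 and 2.50 on the log2 scale, and Ccl20 rose from 1.17 to 26.1 CPM (median 7.88) in control to 24.1 to 500.1 CPM (median 263) in knockout (4.17 ± 0.88). Cxcl17, an epithelial chemokine, and Cxcl14 fell (−1.57 and −1.25). The calls of Cxcl1 (control 5, 6 or 9, knockout 26 or 27) and Cxcl14 (control 1 or 9, knockout 22, 23, 24, 26 or 27) were lost when any library in brackets was left out. Neutrophils also express Cxcl2, Ccl3 and Ccl4, and the part of neutrophil RNA in the rises was not tested. The interleukin 1 family split: Il1b (293 against 23.9 CPM), the antagonist gene Il1rn (122 against 23.5 CPM) and the accessory chain gene Il1rap (51.1 against 12.5 CPM) rose, while Il1a (29.3 against 113 CPM), the signalling receptor gene Il1r1 (24.5 against 49.7 CPM) and Il36b fell. Il36b, an interleukin 36 of epithelia, went from 17.6 to 57.1 CPM (median 34.9) in control to 0.478 to 2.05 CPM (median 1.84) in knockout (log2 fold change −4.53 ± 0.35 SE, adjusted p = 1.16e-09). Clu, which encodes clusterin, an extracellular chaperone that also restrains complement, rose from 186 to 448 CPM (median 344) in control to 1358 to 3061 CPM (median 2285) in knockout (log2 fold change 2.87 ± 0.30 SE, adjusted p = 1.16e-07), as C3 and Cd55 (−1.28 ± 0.27), an inhibitor of complement activation, fell. Of 16 complement genes 2 were higher and 4 lower, beside 10.9% higher and 12.6% lower over all tested genes. Without control 2 the higher complement genes were 5 and the lower ones 4. Serpina1e, an alpha-1-antitrypsin gene of a family of near-identical copies, fell from 2187 to 4614 CPM (median 3353) in control to 67.7 to 1739 CPM (median 396) in knockout (−2.57 ± 0.42), and Serpinb11 rose (5.23 to 104 CPM in knockout against 0.62 to 6.31 CPM in control libraries, 4.07 ± 0.81).

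Interferon-stimulated genes depended on 1 library. With all libraries, 3 of 18 were lower, a share near the 12.6% over all tested genes: Bst2 (−1.20 ± 0.25), Irf7 (−1.21 ± 0.35) and Oasl2 (−0.85 ± 0.30). Knockout library 21 had a score of 8.27, above all other libraries, with the other 6 knockouts at 5.79 to 6.67 and the controls at 6.36 to 7.61. Without library 21, 12 of the 18 genes were called lower and none higher. The class I antigen genes H2-D1 (1018 to 1699 CPM in knockout against 1816 to 4153 CPM in control libraries, −0.96 ± 0.25) and H2-K1 (−0.83 ± 0.28) fell, and the class II genes H2-Aa (1.91 ± 0.43) and H2-Eb1 (1.82 ± 0.38) rose from low levels. The calls of Oasl2 (control 4, 5, 6, 7 or 8, knockout 22, 23, 24, 25, 26 or 27) and H2-K1 (control 4, 5 or 6, knockout 23, 25 or 26) were lost when any library in brackets was left out. Neither gene was called on TPM, and Oasl2 was not called with size factors.

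**Figure D4:**
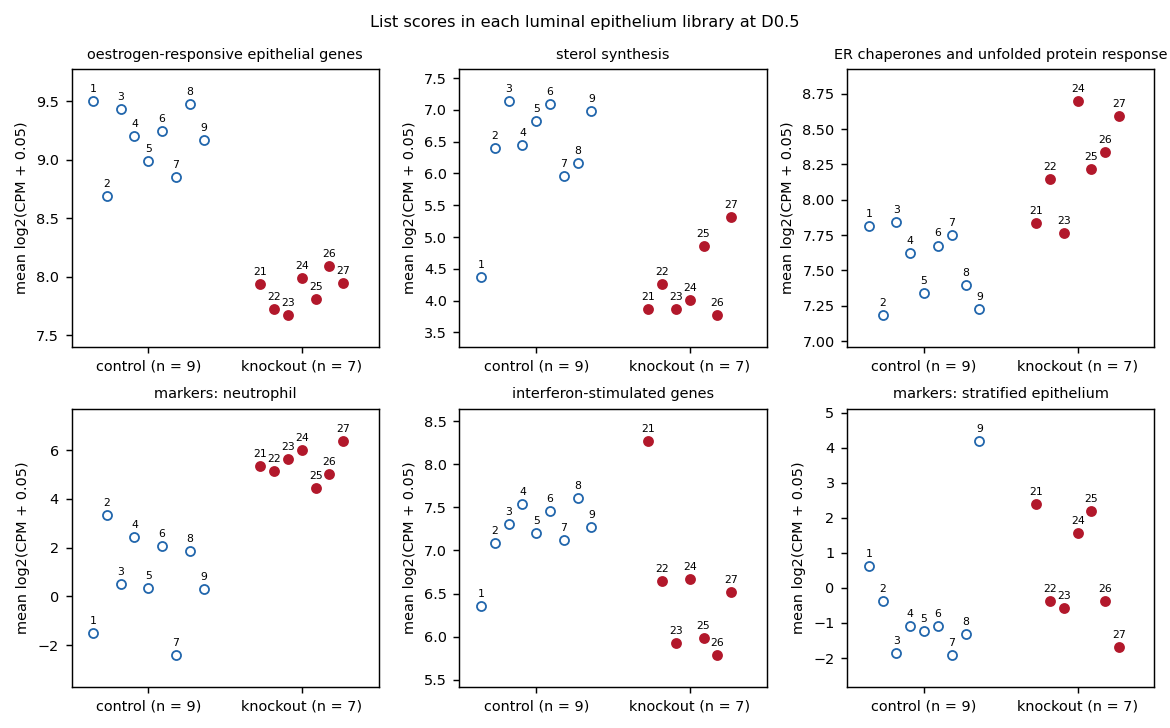
Mean log2(CPM + 0.05) of 6 gene lists in each library, with controls as open and knockouts as filled circles and the library number beside each point. Oestrogen-responsive genes and neutrophil markers separate the groups; control library 1 is low for sterol synthesis, knockout library 21 high for interferon-stimulated genes and control library 9 high for stratified epithelium.

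Markers of other epithelia were unevenly present. Foxa2, the transcription factor of uterine glands, rose from 0.633 to 23.8 CPM (median 2.54) in control to 28.2 to 112 CPM (median 40.8) in knockout (log2 fold change 3.67 ± 0.60 SE, adjusted p = 5.67e-05); control library 1 held 23.8 CPM and the other 8 controls at most 3.2 CPM, and without it the log2 fold change was 4.77. Cxcl15, a gland chemokine, rose as well (0.628 to 12.5 CPM in knockout against 0 to 0.258 CPM in control libraries, 4.97 ± 0.55), and Spink1 was called higher at up to 1.63 CPM (5.45 ± 1.21; 6.20 without control library 7 and 4.57 without knockout library 25). The gland protease genes Prss28 and Prss29 did not pass the filter, and Sox9 (0.30 ± 0.26) and Aldh1a1 (0.23 ± 0.34) were not called. Prom1, also on this list, was lower (−1.71 ± 0.23), so that 3 of 8 gland markers were higher and 1 lower. Mean log2 scores did not overlap and were higher in knockout, at 2.38 to 3.72 against 0.87 to 1.69 in control. Summed levels ran the other way without overlap, at 1207 to 1823 CPM in knockout and 1832 to 5706 CPM in control, with Prom1 the most abundant member. More gland cells in the sheets and expression in luminal cells cannot be told apart. Stratified epithelium markers were high in control library 9 (4.19, other controls −1.91 to 0.63) and varied from −1.69 to 2.41 in knockout. Krt5, a basal keratin, was at 207 CPM in control 9 and at most 0.517 CPM in the other controls, and at 0.907 to 156 CPM in knockout (1.27 ± 1.43, adjusted p = 0.591; without control library 9 it was called higher, at 9.16). Trp63, the p63 transcription factor gene, was called higher (0.628 to 23 CPM in knockout against 0 to 7.61 CPM in control libraries, 3.38 ± 1.02, and 5.97 without control library 9), and Dsg3 (0.675 against 11.1 CPM, −2.28 ± 0.64) and the scarce Krt4 (−6.94 ± 1.99) lower, so that 1 of 9 of these markers rose and 2 fell. Ciliated cell markers were near 0; Foxj1 (3.32 ± 0.78) and Dnah5 (3.58 ± 0.69, or 2.92 without knockout library 23) were called higher, at no more than 2.67 and 3.21 CPM.

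All 4 genes tested that neighbour Wnt7a on one side in the mouse gene order were higher, with a median log2 fold change of 0.89. At D3.5 their median was 0.84. Chchd4, a mitochondrial import gene, separated the groups (22.4 to 57.1 CPM in knockout against 9.23 to 20.4 CPM in control libraries, log2 fold change 1.55 ± 0.20 SE, adjusted p = 1.96e-06), and Tmem43, Xpc and Lsm3 rose by 0.92, 0.47 and 0.87. Their scores did not overlap, at 5.32 to 5.67 in knockout and 4.16 to 4.84 in control. Effects of the lost receptor and of the Wnt7aCre construct, with any DNA linked to it, cannot be told apart for these 4 genes in this design. Only knockout mice carried Cre, so for all other genes too an effect of Cre itself cannot be told apart from receptor loss. Among 18 imprinted genes 3 rose and 2 fell, shares near the 10.9% higher and 12.6% lower over all tested genes. The 2 that fell were Peg10 and Sgce. Plagl1 rose without overlap (101 to 276 CPM in knockout against 11.5 to 76.4 CPM in control libraries, 1.95 ± 0.33).

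The effect of the knockout at D0.5 was set against that in LE at D3.5, where the controls are other mice. The difference of the log2 fold changes passed for 2575 of 15601 genes (16.5%), 1485 (9.52%) with a higher value at D3.5 and 1090 (6.99%) with a lower one. Of the 3676 genes called at D0.5, 1541 were among them. Of those lower at D0.5, 860 had a higher and 13 a lower value at D3.5; of those higher at D0.5, 641 had a lower and 27 a higher value. Both comparisons use the D0.5 libraries, so a difference towards 0 is partly built into genes called at D0.5. The leading genes fell into several patterns. Alpl, Cuzd1, Prss32 and Sprr2a3 had mean levels under 10 CPM in both genotypes at D3.5: Alpl stood at 6.51 ± 6.45 against 9.34 ± 4.1 CPM (knockout against control, SD, n = 6 and 4), and its difference of log2 fold changes was 9.52 ± 0.87 (SE, adjusted p = 4.07e-08). Peg10 and the urea transporter gene Slc14a1 turned over, being higher in knockout at D3.5: Peg10 was at 106 ± 123 against 2.76 ± 1.56 CPM (13.62 ± 1.46 SE, adjusted p = 4.85e-07) and Slc14a1 at 33.7 ± 21.6 against 2.04 ± 1.59 CPM (9.44 ± 1.29 SE, adjusted p = 1.3e-05). Lrat and Pcdh17, a protocadherin gene, were lower in knockout on both days, at 0.351 ± 0.153 against 13.6 ± 14.4 CPM and 1.1 ± 0.978 against 49.9 ± 52.1 CPM at D3.5, and their differences did not pass (1.17 ± 1.31 and 0.61 ± 0.97, edgeR adjusted p = 0.605 and 0.729). Cdh16 was higher on both days with 31.6 ± 16 against 0.271 ± 0.196 CPM at D3.5 and a difference of −0.03 ± 1.60, and Foxa2 likewise (51.2 ± 26.9 against 1.42 ± 0.976 CPM). The neutrophil genes Fpr1 (a receptor for bacterial peptides), Mmp8 and Retnlg were near 0 in both genotypes at D3.5, with differences of −7.89 ± 1.62, −8.55 ± 1.83 and −6.21 ± 1.10. Lgr5, higher in knockout at D0.5, was lower at D3.5 (6.53 ± 4.03 against 102 ± 88.2 CPM, −6.80 ± 0.91 SE, adjusted p = 9.1e-06). Coch was lower on both days and more so at D3.5, at 0.66 ± 0.395 against 890.3 ± 546 CPM (−5.50 ± 0.80 SE, adjusted p = 2.68e-05). In lists, 15 of 20 sterol synthesis genes had a higher value at D3.5 and none a lower one, and 11 of 22 unfolded protein response genes had a lower one.

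**Figure D5:**
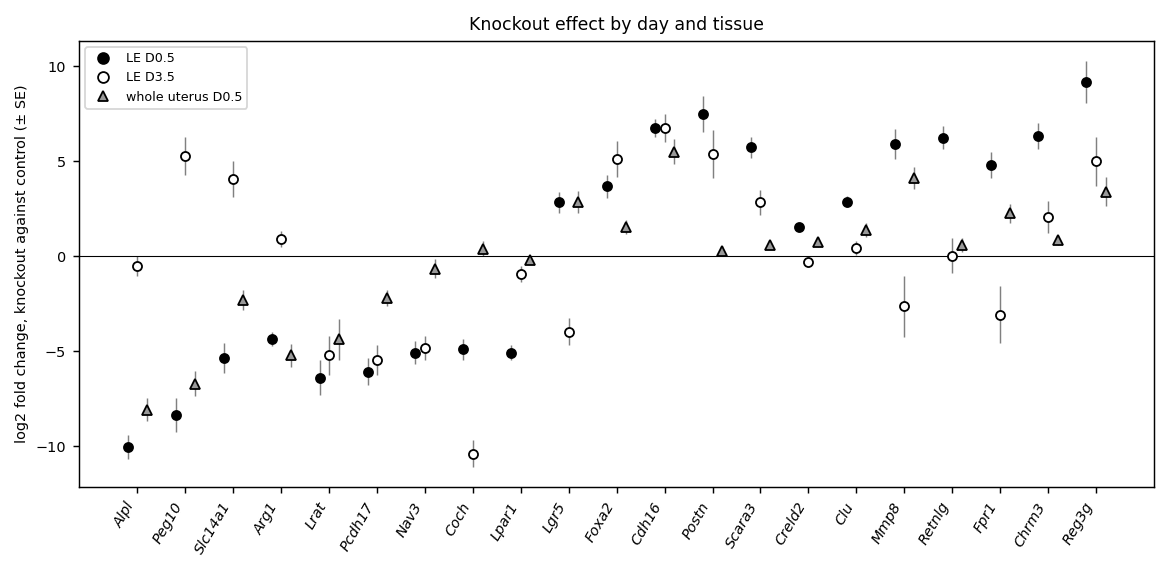
Log2 fold change of knockout against control, with its standard error, for 21 genes in LE at D0.5 (filled circles), LE at D3.5 (open circles) and whole uterus at D0.5 (triangles). The losses of Peg10 and Slc14a1 at D0.5 turn into gains at D3.5, Cdh16 is higher in all 3, and the triangles of Lpar1, Coch and Postn lie near 0.

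In whole uterus of the same day the difference of effects passed for 271 of 16665 genes (1.63%), 186 (1.12%) with a higher and 85 (0.51%) with a lower value in LE. Of these, 258 were also called in LE at D0.5: all 81 that were lower in LE had the lower value there and all 177 that were higher had the higher value there. The LE libraries enter both tests, so that direction is partly built in. Several of these genes had similar means in both genotypes of U. Lpar1, a lysophosphatidic acid receptor gene, fell in LE from 25 to 125 CPM (median 82.7) in control to 1.46 to 2.94 CPM (median 2) in knockout but stood at 76.5 ± 20.7 against 88.7 ± 19.1 CPM in U (SD, n = 4 and 6), a difference of −4.84 ± 0.47 (SE, adjusted p = 6.44e-09). Coch, a matrix protein gene, was at 23.7 ± 5.54 against 18.1 ± 2.1 CPM in U and fell in LE (−4.90 ± 0.54). Postn was at 891 ± 316 against 726 ± 166 CPM in U, where stroma expresses it, and its difference of log2 fold changes was 7.20 ± 1.16 (SE, adjusted p = 0.000159). Scara3 (5.17 ± 0.66) and the neuronal guidance gene Nav3 (−4.43 ± 0.78) passed this test as well. Alpl was at 1.38 ± 0.9 against 399 ± 185 CPM and Arg1 at 11.1 ± 6.21 against 415 ± 175 CPM in U, and their differences between LE and U did not pass (−1.89 ± 0.68 and 0.91 ± 0.56, edgeR adjusted p = 0.183 and 0.663). For neutrophil markers 1 of 17 passed this test (Retnlg, 5.70 ± 0.78), and Mmp8 was at 43.7 ± 25.1 against 2.46 ± 1.57 CPM in U. The count of 271 rests on few mice: it was 480 without the LE library of control 2, against 181 to 303 when any other D0.5 library of LE or U was left out.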

How the data were processed

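RNA of each tissue was isolated as 1 batch, per the labels' protocols, and sequenced as 1 library per sample. The authors deposited estimated counts and TPM per gene for each library, with kallisto 0.46.1 and GRCm39, per the submitters' processing notes; the role of either and any further settings are not given in the sources used here. These estimates were rounded to integers and filtered with filterByExpr (minimum count 10, total 15), scaled by TMM and tested with edgeR 4.0.16 in R 4.3.3, all 26 LE libraries in 4 groups sharing 1 estimate of the spread, with Benjamini-Hochberg adjustment over all tested genes. The day difference is a contrast of that fit, and LE against U came from a joint fit of both tissues. DESeq2 1.42.0 and limma 3.58.1 served as alternatives, with other scalings, filters, pseudocounts and each library left out. Esr1 was tested by exact permutation with scipy 1.17.1. CPM use TMM-scaled library sizes, and list scores use log2(CPM + 0.05).

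The gene lists, comparisons and named genes were chosen with earlier results of these data known. The rule for named genes took Esr1, Pgr and Wnt7a; the 12 highest and 12 lowest called genes with a group mean of 10 CPM or more and no overlap of libraries; from each of the gene lists up to 4 called members by adjusted p and the one of largest change, or the most abundant where none was called; 6 genes on each side of the day and tissue differences; and cell type markers. Other genes named, such as Abca1, C3, Cxcl5, Hmgcs1, Prap1 and Scnn1a, were chosen after their values were seen. Replicate pairs differed by far more than counting noise (chi-square per degree of freedom 38.6 to 543 over 57 pairs), so each library counts as 1 sample. Same-numbered LE and U libraries come from the same mouse; in the 10 D0.5 mice with both, their deviations from the group means correlated at 0.148 to 0.390. Numbers do not pair knockout with control mice, so the main comparison has no block. Digested uterus libraries were not used here. Promoters are RefSeq's on GRCm38.p6; no coordinates of GRCm39 were used. Some members of the lists are not reported here by name.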

Additional observations from a re-analysis of the deposited data

Results flagged for a closer look

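Libraries were compared within their group by Dixon's criterion, on the log2 scale, for 29 list scores and 245 genes. In 47 of 548 group comparisons the highest or lowest library lay further from its nearest neighbour than the 95% critical value allows, where chance gives about 1 in 20. The genes of a list and the lists share members, so these are not independent.

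Control library 1 stood apart 23 times. Its scores were the lowest of the controls for sterol synthesis at 4.37 (5.96 to 7.13) and interferon-stimulated genes at 6.36 (7.08 to 7.61), the range of the other 8 controls in brackets. Genes in which it was the lowest control, in CPM, included Acaca at 29.8 (58.2 to 103), Bst2 at 183 (283 to 417), Casp9 at 11.3 (23.2 to 37.6), Fasn at 282 (537 to 1027), Fdps at 21.1 (126 to 367) and Hdc at 63 (172 to 359). Further lowest values in it were Hmgcs1 at 48.6 (138 to 322), Idi1 at 14.3 (91 to 259), Lpin1 at 2.58 (33.7 to 93.1), Mcm7 at 11 (30.0 to 48.6), Mvk at 2.48 (13.3 to 49.9) and Oasl2 at 142 (189 to 245). It was also lowest for Serpinb11 at 0.62 (2.22 to 6.31), Sqle at 12.1 (75.7 to 211), Srebf2 at 136 (272 to 455), St6gal1 at 28.7 (112 to 200.4) and Tm7sf2 at 4.55 (22.9 to 42.1). It was the highest control for Akr1c18 at 36 (1.27 to 5.64), Foxa2 at 23.8 (0.633 to 3.2), Greb1 at 124 (6.69 to 17.7) and Otop1 at 55 (4.34 to 14.2). Most of the low genes belong to sterol and fatty acid synthesis, and the high ones include Foxa2, a gland factor. What sets this library apart was not tested.

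Control library 4 was the highest of its group for Lpo at 69 (11.2 to 22.9). Control library 7 was the highest of its group for Prok2 at 0.425 (0 to 0.033) and Spink1 at 0.0202 (0 to 0). Control library 7 was the lowest of its group for Cxcl3 at 0.364 (4.3 to 25.9). Control library 8 was the lowest of its group for gland markers at 0.87 (1.39 to 1.69). Control library 9 was the highest of its group for stratified epithelium markers at 4.19 (−1.91 to 0.63), keratins at 6.24 (1.97 to 3.82), Krt5 at 207 (0 to 0.517) and Trp63 at 7.61 (0 to 0.411). Knockout library 21 was the highest of its group for interferon-stimulated genes at 8.27 (5.79 to 6.67), Irf7 at 378 (95.1 to 172) and Oasl2 at 276 (67.9 to 111). Knockout library 23 was the lowest of its group for mucosal defence at 5.38 (6.18 to 6.71), Lcn2 at 6219.9 (13352 to 17896) and Ptges at 27.5 (66.1 to 97.9). Knockout library 24 was the highest of its group for Cftr at 65.1 (20.8 to 32.5). Knockout library 24 was the lowest of its group for Siglecf at 0 (0.543 to 2.49). Knockout library 25 was the lowest of its group for Fgf9 at 15.8 (35.6 to 42.3) and Lrat at 0.0603 (0.334 to 0.682). Knockout library 27 was the highest of its group for DNA replication at 3.18 (2.19 to 2.55). Knockout library 27 was the lowest of its group for prostaglandin synthesis and receptors at 4.11 (4.41 to 4.62), Arg1 at 11.2 (35.6 to 77.4), Fzd10 at 0.0697 (2.65 to 15.7) and Mylip at 46.3 (89.2 to 145). Krt5 and Trp63, both high in control library 9 with the keratin and stratified scores, mark basal and stratified epithelium. Irf7 and Oasl2 stood out in knockout library 21 with the interferon-stimulated score.

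The knockout effect differed between the days by a test of the difference (edgeR) in 2575 genes. The differences of log2 fold changes, D3.5 minus D0.5, were Alpl 9.52, Coch −5.50, Fpr1 −7.89, Lgr5 −6.80, Mmp8 −8.55, Peg10 13.62, Retnlg −6.21 and Slc14a1 9.44. Between LE and whole uterus at D0.5 it differed in 271 genes, with LE minus U differences of Lpar1 −4.84, Nav3 −4.43, Postn 7.20, Retnlg 5.70 and Scara3 5.17. Peg10 and Slc14a1 changed direction between the days, and Retnlg, a neutrophil product, differed both by day and by tissue.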

How the results depend on the processing

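Counting only genes with at least a 2-fold change reduced the called genes to 1935, 1069 higher and 866 lower. Limma on log2(TPM + 1), log2(TPM + 0.1) and log2(TPM + 1) without a filter on low values called 1242, 1247 and 1251 lower genes against 1968 by edgeR, and 1515, 1560 and 1601 higher genes. Size factors, no filter on low counts, DESeq2, voom with sample weights and a fit of the 16 libraries alone kept both counts within 1.5 times, voom giving the highest with 2481 higher and 2700 lower. The share of called genes that were higher ran from 45.9% to 56.1% over all settings. Leaving out 1 LE library gave 1512 to 1875 higher and 1607 to 2091 lower genes, and 2275 to 2769 genes for the day difference. For LE against U, leaving out 1 D0.5 library of either tissue gave 181 to 480 genes in all, 117 to 363 with a higher and 64 to 117 with a lower value in LE. The 480 and 363 came without LE control library 2. The higher count fell to 121, 117 and 120 without U knockout library 21, 25 or 26. All mice with U at D0.5 also gave LE, and a further fit took mouse as a replicate block. It held only mice with both tissues (6 control and 4 knockout at D0.5), so fewer LE libraries. In it 262 genes passed (171 higher, 91 lower), which changed no count by over 1.5 times. Of 226 named called genes 198 kept their call under all other settings and 202 with any single library left out, and none changed direction. Casp9, Oasl2 and Sec61a1 each lost theirs under 15 or more settings, and Vegfa under 13. The limma fits of TPM all lost the calls of Adamts4, Bak1, Car12, Casp9, Cldn4, Fgf1, Fgf9, Gjb1, H2-K1 and Mcm7. Those of Oasl2, Ssr1, Tagln and Vegfa were lost in all of them too. The shallowest D0.5 LE library held 16.4 M counts. The cause was not tested for any of these shifts.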

Other observations

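Some listed genes did not pass the filter on low counts. Aqp8, a water channel gene, had no count in the 7 knockout libraries and 818 counts in the controls, 41.0 CPM of it in control library 1, 0.891 CPM in library 3 and 0.223 CPM in library 7. Cnfn, a cornified envelope gene, was at 22.1 CPM in control library 9, the library with the highest Krt5 among controls. In the other libraries that held counts of either gene it stayed below 1 CPM, and no group comparison was made of them.

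Mitochondrial transcripts took 4.41% to 11.4% of the counts in knockout and 4.18% to 8.10% in control libraries. Among the 20 most abundant control genes mt-Cytb (0.77 ± 0.23) and mt-Nd4 (0.66 ± 0.23), which encode parts of respiratory complexes III and I, were the 2 that rose (the latter not called without any 1 of 8 libraries), while mt-Co1 (0.22 ± 0.30), the most abundant of all, was not called. Cfb, complement factor B, had a higher mean in knockout (0.99 ± 0.37, edgeR adjusted p = 0.0505) without passing, against the fall of C3. These genes were chosen after their values were seen.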
